A study of Mus musculus with 6 samples.

Results

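The 39 protein-coding Hox genes of the mouse were examined out of 21883 protein-coding genes placed on the mm10 genome build. They were chosen by symbol, as every protein-coding gene named Hoxa, Hoxb, Hoxc or Hoxd with a number. The Hoxa cluster holds 11 of them, Hoxb 10, Hoxc 9 and Hoxd 9. All binding summits inside each cluster and the 50 kb on either side were collected and given to the gene with the nearest start or end. The data were chromatin immunoprecipitation with sequencing (ChIP-seq) of epithelial cells from the gastric corpus, the acid-secreting main body of the stomach. Each deposited file lists the summits, the single-base high points of the regions enriched over the genome. There was 1 normal and 1 tumor library for H3K27ac, the acetylated form of histone H3 found at promoters and enhancers in use. YAP, a transcriptional coactivator of the Hippo pathway that reaches DNA through TEAD factors, was profiled in 2 normal and 2 tumor libraries.

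The normal group was labelled WT and the tumor group CluCreERT2;R26rtTA;HA-Yap+. In the latter genotype the Clu gene drives a tamoxifen-inducible Cre recombinase, and an HA-tagged Yap transgene is controlled by doxycycline. The treatment protocol was the same for all 6 libraries and consisted of 2 mg tamoxifen on each of 5 days, followed by 14 days of food with doxycycline. The cells were released from corpus tissue with EDTA and fixed without culture, so the cells are bulk epithelium and not Clu-expressing cells alone. Whether 2 libraries of a group stem from different animals is not stated, so the spread between them may be technical.

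The lists differed in length. H3K27ac gave 22574 summits in normal and 66896 in tumor tissue. YAP gave 1654 and 2141 summits in the normal libraries and 38268 and 53904 in the tumor libraries. H3K27ac counts are therefore also given at equal list length, with only the 22574 best-scored summits of the tumor list. The depth behind each list is unknown. In 2 YAP libraries the word inside the peak names went against the label: the library labelled normal 2 carried the word of the Yap genotype (Clu_Yap), and the library labelled tumor 1 carried the word cre. The YAP counts of the windows are given with and without these 2 libraries. Shared sites rest on tumor 1 and tumor 2 together, so gene counts and shares are also given for tumor 2 alone.

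Hox genes encode homeodomain transcription factors that give cells their position along the head-to-tail axis. Their order on the chromosome follows the order of their expression domains, so the genes of a cluster are numbered by paralog group from the anterior to the posterior end. In the embryo, Polycomb proteins keep the genes of a cluster silent until they are needed, and active chromatin then spreads along the cluster. Anterior and central Hox genes pattern the foregut, from which the stomach derives, and posterior genes pattern the hindgut, limbs and urogenital tract. Groups 1 to 4 are called anterior here (12 genes), groups 5 to 8 central (11 genes) and groups 9 to 13 posterior (16 genes).

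The Hoxa cluster lies on chromosome 6. Hoxb spans chromosome 11 from 96194316 to 96368254, Hoxc chromosome 15 from 102921131 to 103036856 and Hoxd chromosome 2 from 74668225 to 74765142. With their flanks the 4 windows covered 892 kb, or 0.0328% of the 2722 Mb spanned by the summits. Hox genes are crowded. The median stretch of sequence nearer to a Hox gene than to any other gene was 12.2 kb, against 46.5 kb over all protein-coding genes, so a count per Hox gene was drawn from less sequence.

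Normal corpus epithelium had 14 H3K27ac summits in the 4 windows and the tumor library had 118. Hoxa held 4 summits in normal and 28 in tumor tissue. Hoxb held 8 and 43. Hoxc held 2 and 24. The Hoxd window had 0 summits in normal and 23 in tumor tissue. Every window thus had more summits in the tumor list, and Hoxb, the longest, had the most in both. The tumor count was 8.43 times the normal count (exact 95% interval 4.83 to 15.9, for counting error only), while the tumor list as a whole was 2.96 times as long as the normal list. At equal list length the windows held 6 tumor summits in Hoxa, 10 in Hoxb, 1 in Hoxc and 2 in Hoxd. Their sum of 19 was 1.36 times the normal count, with an interval of 0.645 to 2.93 that includes no difference. With 1 H3K27ac library per group there is no replicate check and no test.

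**Figure D1:**
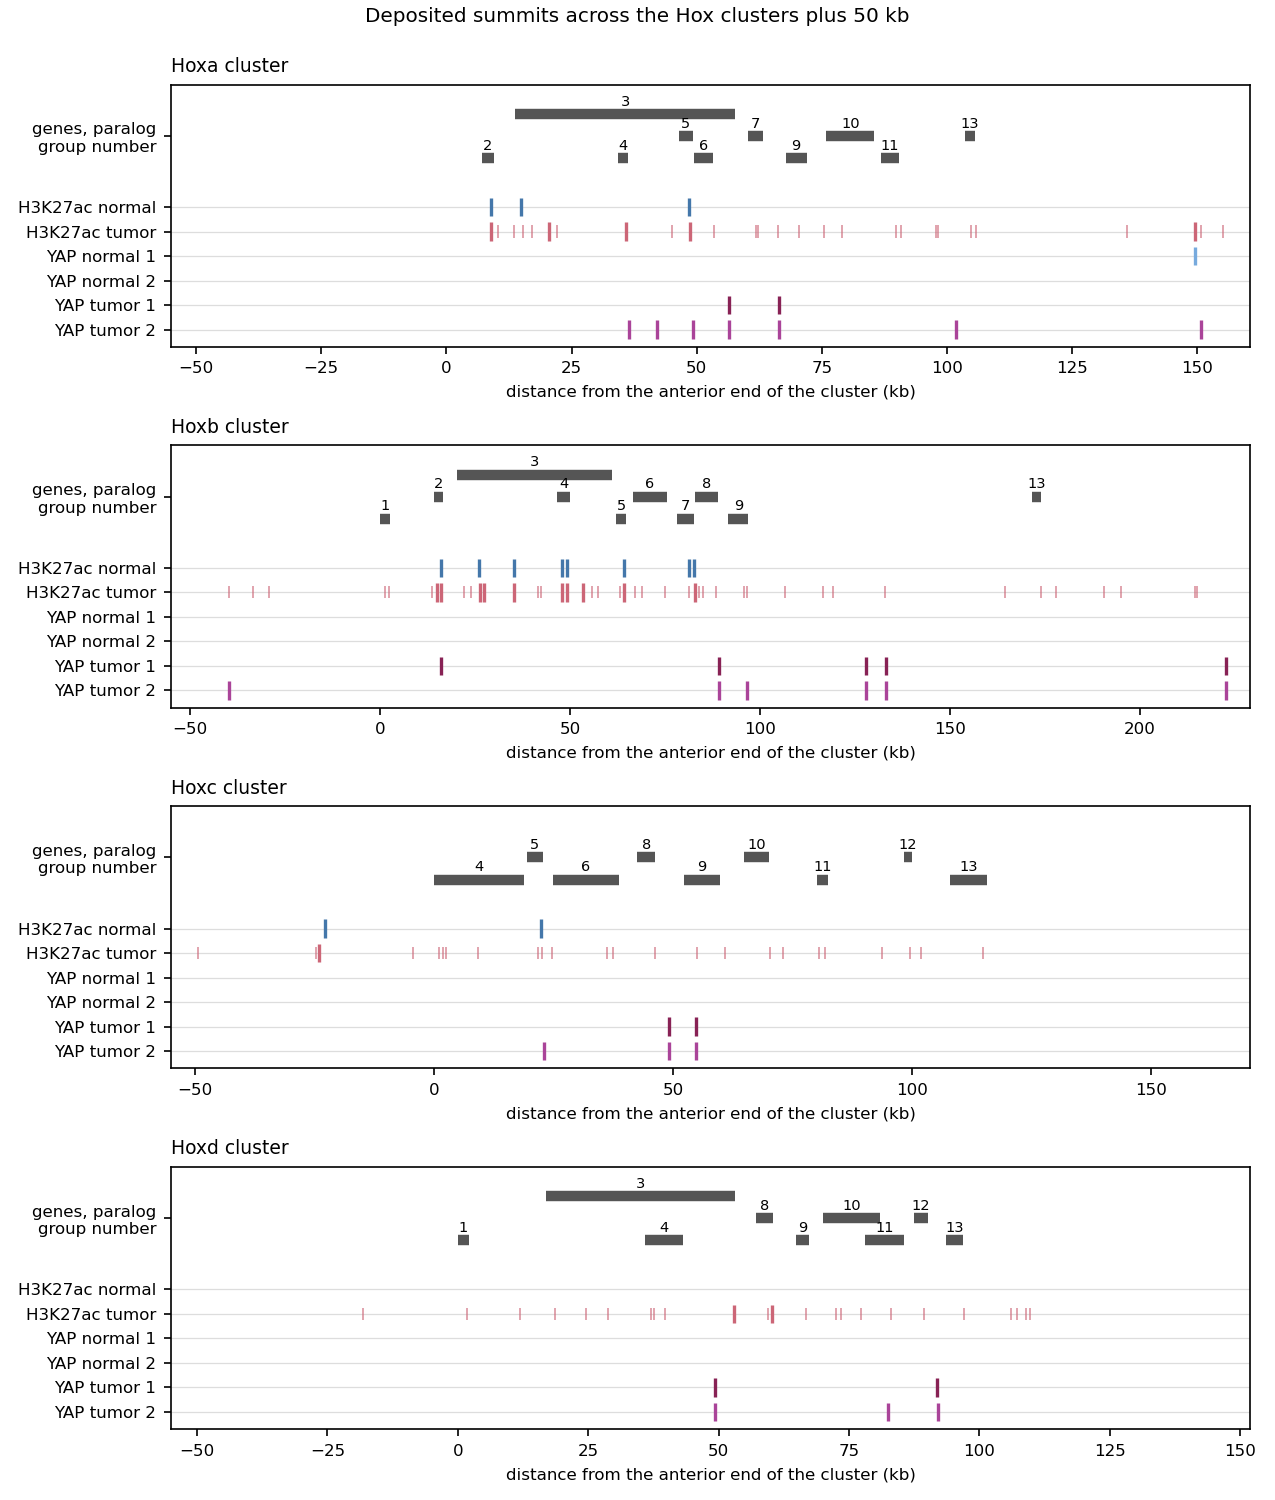
Position of summits across the 4 Hox windows, in kb from the anterior end of each cluster, with gene bodies as bars numbered by paralog group and 1 row of ticks per library. Thick ticks in the H3K27ac tumor row are summits among the 22574 best-scored of that list. Normal H3K27ac summits lie in the anterior and central parts of Hoxa and Hoxb. In the Hoxc window 1 lies at the central gene Hoxc5 and 1 in the anterior flank, and none lies in the Hoxd window.

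Summits per 100 kb allow the windows to be set beside the genome. The windows had 1.57 H3K27ac summits per 100 kb in normal tissue, where the genome had 0.829. In tumor tissue they had 13.2, where the genome had 2.46. At equal list length the density was 2.13. The windows therefore carried 1.89 times the genome's density in normal tissue, 5.38 times in tumor tissue and 2.57 times at equal list length. Windows rich in genes were not compared with other windows of like gene content.

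**Figure D2:**
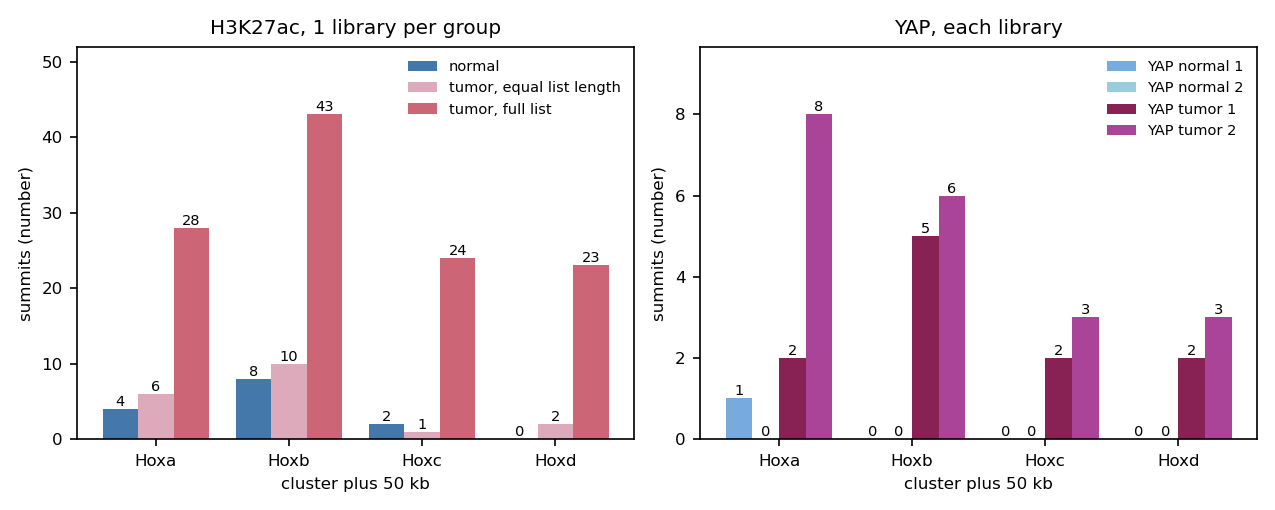
Number of summits in each Hox window by library, for H3K27ac (normal, tumor and tumor at equal list length) and for the 4 YAP libraries. The full-list tumor H3K27ac bars and the tumor YAP bars exceed the normal bars in every window. The equal-length H3K27ac bars lie near the normal ones, with 1 in Hoxc against 2 in normal tissue.

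Few of the tumor Hox summits were among the best of their list. The score in the deposited lists is the authors' own, a −log10 of a p- or q-value, and scores of different lists, where printed together, are each list's own and not compared. Of the 118 tumor summits, 19 were among the 22574 best (16.1%, Wilson 95% interval 10.6 to 23.8), against 33.7% of the whole tumor list. In the better-scored part above the middle of that list lay 50 of 118 (42.4%, 33.8 to 51.4), an interval that includes an even split. None of the 14 normal summits was in the better-scored part above the middle of the normal list. The best of them ranked 12396 of 22574, at Hoxb2. Normal scores ran from 3.63 to 11.3 with a median of 5.54, and tumor scores began at 3.93 and had a median of 11.8.

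Most normal summits had a tumor summit close by. Of the 14 normal summits, 13 had a tumor summit within 1 kb (92.9%, Wilson interval 68.5 to 98.7), where 79.8% of all normal summits did. With the normal positions shifted by 10 kb, 4 of 14 (28.6%) in the windows and 11.4% of all summits still had one, so neighbours by position alone were commoner in the windows. The distances of the 14 from their nearest tumor summit ran from 2 to 1258 bp with a median of 59.5 bp. By rank as a percent of its own list, the tumor summit stood better in all 14 pairs. It did so too for 88.6% of the 18018 normal summits of the whole list with a tumor summit within 1 kb. The paired scores of named genes below are to be read against that share, and a better standing is not particular to Hox summits. At equal list length 10 of the 14 still had a partner (71.4%, against 67.0% of all). In the other direction, 14 of the 118 tumor summits had a normal summit within 1 kb (11.9%, interval 7.20 to 18.9), where 24.7% of all tumor summits did. So most tumor Hox summits had no normal counterpart nearby, more often than in the list as a whole. With 14 normal summits in the windows against 118 tumor summits, a low share with a normal summit nearby follows largely from these counts. At equal length that share was 10 of 19 in the windows (52.6%) and 57.8% over all summits, a gap within the interval of 31.7 to 72.7.

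In normal tissue 11 of the 39 Hox genes had an H3K27ac summit (28.2%), where 54.3% of all protein-coding genes had one. In the tumor list 39 of 39 did, where 81.4% of all genes did. The 11 genes were thus marked in both lists, as were 52.5% of all genes. At equal length 13 of 39 did (33.3%), against 59.9%. Within 1 kb of a gene's start or end the counts were 8, 32 and 9 of 39, against 44.0%, 59.7% and 44.9% of all genes. Hox genes were thus marked less often than the average gene in the normal list and more often in the full tumor list. At equal length they were again below the average.

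The tumor library had more H3K27ac summits at 37 of 39 Hox genes, where 58.1% of all genes had more. Hoxb7 was the only Hox gene with fewer, 1 in tumor against 2 in normal, where 7.37% of all genes had fewer; a tumor summit 159 bp from the first of these normal summits was nearer to Hoxb8. At equal list length 7 Hox genes had more (16.4% of all genes) and 2 had fewer (Hoxb7 and Hoxc5, 20.5% of all genes). The 28 Hox genes with a tumor and no normal summit, where 28.8% of all genes were so, included all 9 Hoxd genes and all 16 posterior genes.

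The position along the cluster divided the genes. A normal H3K27ac summit was present at 7 of 12 anterior genes, 4 of 11 central genes and 0 of 16 posterior genes. At equal list length the tumor library had one at 9 of 12, 4 of 11 and 0 of 16. In the full tumor list every gene of each class had one. Set against the sequence assigned to each class (359 kb anterior, 87.1 kb central and 318 kb posterior), the order of the first 2 turned. Normal tissue had 2.51 anterior and 5.74 central summits per 100 kb, the equal-length tumor list 3.90 and 4.59, and the full tumor list 13.1 and 26.4 with 11.3 in the posterior class. The posterior class thus had the lowest density in all 3 lists. Anterior genes led central ones in genes marked in the normal and equal-length lists, and not in density. That lead depended on the assignment limit of 50 kb. Within 1 kb of a gene's start or end, normal tissue had 4 of 12 anterior, 4 of 11 central and 0 of 16 posterior genes marked (44.0% of all genes). At equal length the counts were 5, 4 and 0 (44.9%), and in the full tumor list 8, 10 and 14 (59.7%). The 14 normal summits fell as 9, 5 and 0, and the 19 equal-length tumor summits as 14, 4 and 0 with 1 more at Evx1. A count of 0 allows a posterior share of up to 21.4% of the normal summits and 15.8% of the equal-length tumor summits. The absence of posterior summits from both lists of that length therefore has a limit set by how few summits there were. In the full list 47 tumor summits were anterior, 23 central and 36 posterior, and the other 12 lay nearest to Evx1, Evx2 and Ttll6, the neighbouring genes.

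The best-scored summit of each gene was compared within the tumor list. Anterior genes had more summits each to draw it from. The best summit of an anterior gene scored 35.1 in the median, with 12.4 at Hoxb1, the lowest, and 66.5 at Hoxb4. Central genes had a median of 18.5, from 5.46 at Hoxa6 to 47.4 at Hoxb5. Posterior genes had a median of 16.8, from 7.03 at Hoxc10 to 22.4 at Hoxd13. The 3 classes overlapped, most of all central and posterior genes, but no posterior gene scored above 22.4 while 9 of 12 anterior genes did. The median over all 39 Hox genes was 18.5, below the median of 61.3 over the 17803 genes with a tumor summit.

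**Figure D3:**
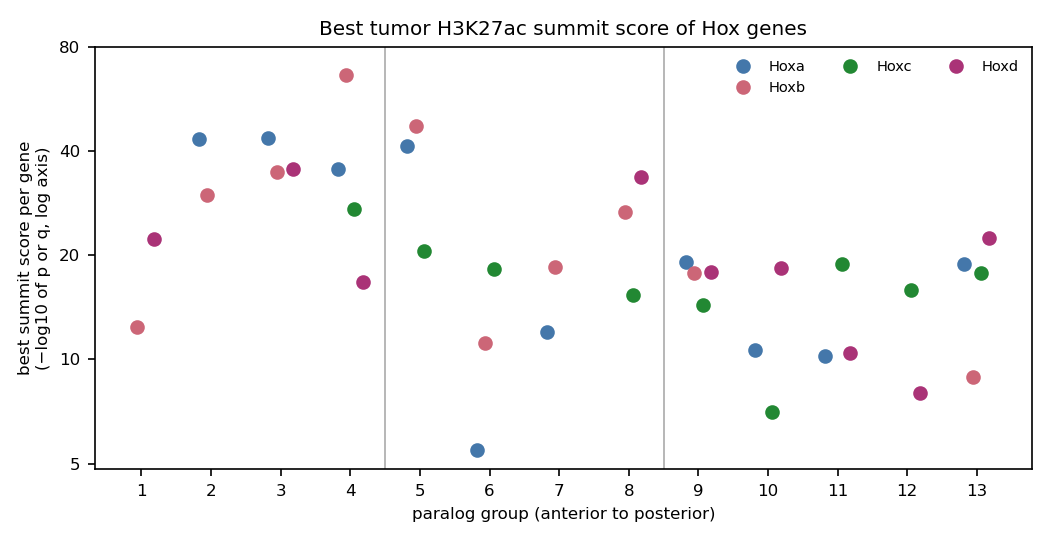
Best tumor H3K27ac summit score of Hox genes (−log10 of p or q, log axis) by paralog group, coloured by cluster, with vertical lines between anterior, central and posterior groups. The highest points drawn are Hoxb4 (66.5) and Hoxb5 (47.4), and the posterior groups all lie at or below 22.4.

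Promoter sequences show where some of these summits sit. RefSeq promoters (GRCm38.p6, the mm10 assembly) were matched for 22 of the 39 genes, with 24 starts. The 250 bases before a start are printed for 3 genes with a tumor summit inside them, 1 from each class, and the capitals mark the 11 bases centred on the summit. Hoxc4 (chr15:103034145-103034394, plus strand) is anterior and its summit lies 38 bp before this start, which is inside the longest annotated Hoxc4 gene body.
Hoxc4: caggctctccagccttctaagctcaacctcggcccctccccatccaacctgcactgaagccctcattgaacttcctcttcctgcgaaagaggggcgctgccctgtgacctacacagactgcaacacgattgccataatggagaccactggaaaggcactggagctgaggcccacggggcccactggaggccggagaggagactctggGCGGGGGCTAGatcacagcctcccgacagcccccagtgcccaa
Hoxa6 (chr6:52208673-52208922, minus strand) is central and its summit lies 196 bp before the start.
Hoxa6: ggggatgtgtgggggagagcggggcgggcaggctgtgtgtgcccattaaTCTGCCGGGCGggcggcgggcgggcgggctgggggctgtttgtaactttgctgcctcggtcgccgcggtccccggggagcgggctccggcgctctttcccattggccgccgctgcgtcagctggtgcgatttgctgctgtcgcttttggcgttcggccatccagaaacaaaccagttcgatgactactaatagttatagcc
Hoxd13 (chr2:74667975-74668224, plus strand) is posterior and its summit lies 217 bp before the start.
Hoxd13: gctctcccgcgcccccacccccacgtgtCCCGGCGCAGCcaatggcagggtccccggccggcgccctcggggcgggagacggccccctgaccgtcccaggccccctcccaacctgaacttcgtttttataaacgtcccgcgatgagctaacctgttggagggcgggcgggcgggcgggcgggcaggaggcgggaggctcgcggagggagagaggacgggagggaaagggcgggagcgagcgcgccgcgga
The Hoxd13 stretch is 74.4% G or C with 31 CpG dinucleotides, Hoxa6 65.2% with 24 and Hoxc4 62.0% with 8. Over the 24 Hox starts the G or C share of these stretches ran from 40.4% to 80.0%, with a median of 58.6%.

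Among anterior genes, Hoxa2, which gives identity to the second branchial arch, had a normal summit at 52164280 on chromosome 6 (score 10.3) and a tumor summit 8 bp away (43.3). Hoxa3, needed for thymus and parathyroid formation, had 1 normal summit and 5 tumor summits. Hoxa4 had none in normal tissue and 1 in tumor tissue, 548 bp inside one end of the gene, with a score of 35.5 that placed it in the equal-length list.

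Hoxb4, a homeobox gene known for its effect on blood stem cells, was the most marked Hox gene of normal epithelium with 3 summits. In the tumor list it had 6, and 4 of these were kept at equal length. The 3 normal summits, at 96318966, 96320306 and 96332914 on chromosome 11, scored 5.67, 3.63 and 4.64. Tumor summits within 93 bp of them scored 66.5, 27.8 and 48.9 in their own list, whose scores are not compared with the normal ones. Neighbouring Hoxb3 went from 1 to 6 summits and Hoxb2 from 1 to 3, and each kept 2 at equal length. Hoxb1, at the anterior end of the same cluster, had 0 in normal and 5 in tumor tissue, none of them among the 22574 best. The marked stretch of normal Hoxb therefore ran from Hoxb2 to Hoxb7 without Hoxb6 and without either end of the cluster.

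Hoxc4 (chromosome 15, 103018097 to 103036856) had the most tumor summits of any Hox gene, 8 against 1 in normal tissue. It also had the longest stretch of sequence assigned to it, 69.1 kb. Its normal summit, at 103059559 in the anterior flank, was the 1 without a tumor partner within 1 kb; the nearest was 1258 bp away and scored 27.3. Of the anterior Hoxd genes, Hoxd1 had 2 tumor summits, Hoxd3 4 and Hoxd4 4, and all had 0 in normal tissue. Only the Hoxd3 summit at 74712207 on chromosome 2 (score 35.5) was among the best 22574.

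**Figure D4:**
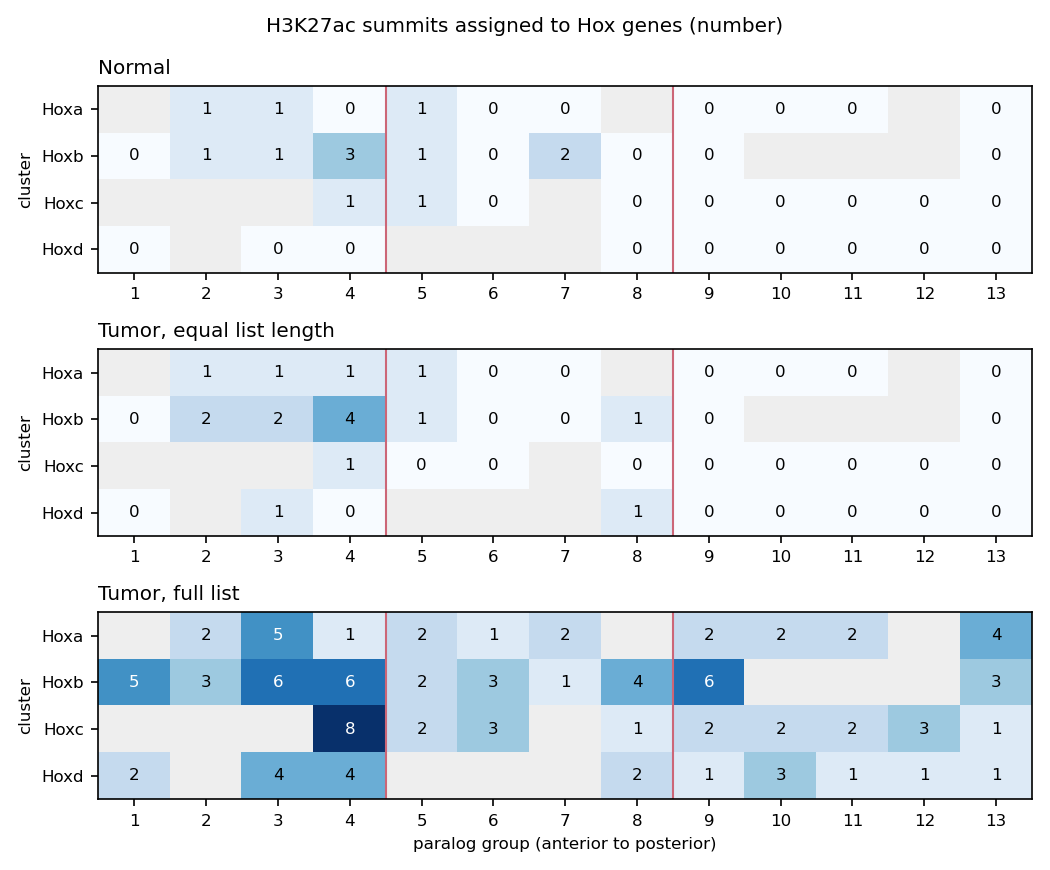
H3K27ac summit counts of Hox genes by cluster (rows) and paralog group (columns), in normal tissue, in tumor tissue and in the tumor list at equal length. Grey cells are genes absent from the mouse cluster or not drawn, and red lines separate anterior, central and posterior groups; in the normal and equal-length panels all 16 posterior genes are at 0.

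Among central genes, all 3 members of paralog group 5 had a normal summit, and in group 6 none of 3 did. Hoxa5 (chromosome 6, 52201754 to 52204587), a gene known for its role in the lung, the diaphragm and the foregut mesenchyme, had a normal summit at 52203882 (score 7.25) and a tumor summit 72 bp away (41.3). Hoxb5, known for enteric nervous system development, had a normal summit at 96303985 (11.1) and a tumor summit 18 bp away (47.4). Hoxc5 had a normal summit at 103014363 (5.07) and a tumor summit 56 bp away (20.5). These are the 3 clusters with a group 5 gene, so each that has the gene was marked there in both lists. Hoxb7 held the other 2 central normal summits. Hoxd8, the only central Hoxd gene, had none in normal tissue and 2 in tumor tissue, with a best score of 33.6 that placed 1 of them in the equal-length list.

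Hoxa5 also had the YAP summit closest to an end of any Hox gene. It came from tumor 2 (score 8.38) and lay 9 bp inside the gene from its start. The 250 bases before that start (chr6:52204588-52204837, minus strand) are shown because YAP and H3K27ac summits of the tumor libraries lie just downstream; they hold no summit and no searched motif, so none is in capitals.
Hoxa5: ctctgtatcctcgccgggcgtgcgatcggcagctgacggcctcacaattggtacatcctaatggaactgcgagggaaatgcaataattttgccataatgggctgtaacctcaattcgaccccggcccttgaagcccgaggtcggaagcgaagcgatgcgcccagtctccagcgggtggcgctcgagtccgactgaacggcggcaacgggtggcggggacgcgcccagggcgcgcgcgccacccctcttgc
The stretch is 63.6% G or C. The H3K27ac summits lay 705 bp (normal) and 633 bp (tumor) inside the gene from this start. Tumor 1 had no YAP summit at Hoxa5.

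All 16 posterior genes were at 0 in normal epithelium and had between 1 and 6 summits in the tumor list. Hoxb9 had 6. The pair at 96271747 and 96272581 lay inside the gene and the rest in the long gap toward Hoxb13. Hoxa13, which patterns the hindgut, genital tubercle and digits, had 4, with a best score of 18.9. Hoxd13, its paralog in the Hoxd cluster, had 1, the best-scored posterior summit at 22.4, shown above. Hoxb13, known in prostate and distal gut, had 3, with a best score of 8.92. Paralog group 13 thus carried 9 tumor summits over 4 genes and group 12 carried 4 over 2. None of the posterior scores reached the equal-length list, whose lowest Hox summit scored 24.2.

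The tumor summits were spread through the clusters. Inside the cluster ends there were 95, and 23 lay in the flanks. The median gap between neighbours was 3.70 kb in Hoxa, 2.81 kb in Hoxb, 5.90 kb in Hoxc and 5.92 kb in Hoxd. The largest gap was 31.4 kb, between Hoxb13 and Hoxb9, from 96203874 to 96235272. The largest gap of any other cluster was 13.6 kb, in Hoxa.

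YAP summits in the windows were few in number, though in the tumor libraries near the genome's density, as given below. Normal 1 had 1, normal 2 had 0, tumor 1 had 11 and tumor 2 had 20. The tumor libraries were both above the normal ones (means 15.5 ± 6.36 and 0.5 ± 0.707, SD, n = 2 each), a difference of 15 summits. The exact two-sided permutation p was 0.333, the smallest that 2 libraries against 2 allow, and the same p was found for each of the 4 windows. Hoxa held 2 and 8 summits in tumor 1 and tumor 2, Hoxb 5 and 6, Hoxc 2 and 3 and Hoxd 2 and 3. Grouped by the word in the peak names, the difference was 4 summits (exact p = 1), and without the 2 libraries in question it was 1 in normal 1 against 20 in tumor 2, which has no test. At equal list length, the 1654 best summits of each library, no tumor summit was left in the windows.

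The density of YAP summits in the windows was close to that of the genome. Tumor 1 had 1.23 per 100 kb, where the genome had 1.41, and tumor 2 had 2.24, where the genome had 1.98. Sites found in both tumor libraries within 200 bp numbered 10 in the windows out of 29492, a density of 1.12 per 100 kb against 1.08. The H3K27ac densities of the tumor library, by contrast, stood at 13.2 and 2.46. The single normal summit, in normal 1 at 52304931 on chromosome 6 (score 3.72), lay nearest to Evx1, 8567 bp from it, and 67 bp from a tumor H3K27ac summit.

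Of the 39 Hox genes, 8 had a YAP site of both tumor libraries (20.5%), where 60.1% of all protein-coding genes had one. They were Hoxa3, Hoxa9, Hoxb8, Hoxb9, Hoxc8, Hoxc9, Hoxd3 and Hoxd13, 2 from each cluster. By the class of the assigned gene 2 were anterior, 2 central and 4 posterior. The anterior ones, Hoxa3 and Hoxd3, have long gene bodies (44009 and 36279 bp) that reach past other Hox genes. Their sites lay toward the posterior ends of these bodies. The Hoxa3 site at 52211749 was between Hoxa6 and Hoxa7, and the Hoxd3 site at 74715912 between Hoxd8 and Hoxd4. Tumor 1 alone gave 9 genes (66.3% of all genes) and tumor 2 alone gave 15 (70.8%). The normal libraries gave 0 Hox genes each, where 2.79% and 5.98% of all genes had a summit and 0.951% had a site of both. A tumor H3K27ac summit together with a shared YAP site was found at these same 8 of 39 (20.5%), since every Hox gene had such an H3K27ac summit, and at 56.9% of all genes. Hox genes were therefore below the share of all genes in each tumor library, with less sequence assigned to each, as given above; the part of that in the lower share was not tested.

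The site at Hoxa9, a posterior gene known for its role in blood progenitors and leukaemia, was the best-scored of the windows. Its summits at 52221794 in tumor 1 and 52221821 in tumor 2 scored 10.8 and 17.2, ranking 11928 and 12808 in their lists. The site lay 1290 bp from the Hoxa9 gene and 309 bp from a tumor H3K27ac summit. The Hoxa9 promoter (chr6:52227371-52227620, minus strand) is shown because it was the only matched Hox promoter with GGAATG, the core of the TEAD motif, before its start, and the capitals mark that match.
Hoxa9: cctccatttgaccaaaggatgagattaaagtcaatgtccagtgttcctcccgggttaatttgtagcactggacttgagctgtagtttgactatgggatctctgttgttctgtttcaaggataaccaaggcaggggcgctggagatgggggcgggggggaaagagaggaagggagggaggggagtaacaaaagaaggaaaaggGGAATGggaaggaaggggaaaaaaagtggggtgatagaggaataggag
This promoter is at the other end of the gene from the YAP site and is 49.6% G or C with 3 CpG dinucleotides. In windows of 300 bases, which add the 50 bases after the start, GGAATG on either strand was found in 2 of the 24 Hox promoters (Hoxa9 and Hoxd10) and in 14.7% of 32851 RefSeq promoters. TGANTCA, the AP-1 motif, was found in 1 (Hoxd11) and in 7.81% of all promoters. The 2 motifs can share the letters TG, and no Hox promoter held both. A match describes the letters and not a bound site.

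The other sites of both tumor libraries scored lower. Hoxb8, a central gene, had a site 399 bp outside the gene at 96279002 on chromosome 11 (scores 7.28 and 10.8), 798 bp from a tumor H3K27ac summit. Hoxb9 had 2 sites, 30921 and 36172 bp away in the gap toward Hoxb13, and the farther (8.16 and 8.05) was 114 bp from a tumor H3K27ac summit. Hoxc9 had a site inside the gene, 172 bp from a tumor H3K27ac summit (3.95 and 4.35). At Hoxc8 (7.06 and 14.1), Hoxd13 (6.05 and 7.84), Hoxd3 (5.65 and 5.14) and Hoxa3 (3.34 and 5.33) the nearest H3K27ac summit was 2603 to 3705 bp away. The tenth site was nearest to Ttll6, in the flank of Hoxb.

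Tumor 1 had 10 of its 11 window summits in tumor 2 as well (90.9%, Wilson interval 62.3 to 98.4), where 77.1% of all its summits were shared. Tumor 2 shared 10 of 20 (50.0%, against 54.7%). The summit of tumor 1 alone was at Hoxb2 (96352319, score 4.65). Those of tumor 2 alone included Hoxa4 (52191853, 5.41) and 2 at Hoxa5 (3.97 and 8.38).

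Few YAP summits lay in the windows, so their distance to H3K27ac was known only roughly. Of the tumor 1 YAP summits, 5 of 11 lay within 1 kb of a tumor H3K27ac summit (45.5%, Wilson interval 21.3 to 72.0), and 50.8% of all its summits did. For tumor 2 it was 12 of 20 (60.0%, 38.7 to 78.1), against 42.0%. For sites of both it was 4 of 10 (40.0%, 16.8 to 68.7), against 52.0%. All 3 intervals include the share of the whole list, so no difference was detectable at these numbers, which does not show that the shares are alike. Near a normal H3K27ac summit the windows had fewer: 1 of 11 for tumor 1 (9.09%, 1.62 to 37.7), against 44.5% of all, and 3 of 20 for tumor 2 (interval 5.24% to 36.0%), against 34.8%. The tumor 1 interval lies below the share of its whole list, and the tumor 2 interval just includes it. Tumor 1 is a library whose peak-name word goes against its label. No normal H3K27ac summit lay at a posterior gene, where 5 of the 11 tumor 1 and 8 of the 20 tumor 2 summits lay. The part of that in the lower shares was not tested. In the reverse direction, 4 of the 118 tumor H3K27ac summits in the windows had a YAP site of both libraries within 1 kb (3.39%, interval 1.33 to 8.39), where 24.3% of all tumor H3K27ac summits did. With tumor 2 alone it was 13 of 118 (interval 6.55% to 17.9%), against 33.7%. The acetylated sites of the Hox windows were thus near a YAP summit less often than those of the whole list, with or without tumor 1. The windows held only 10 shared sites and 20 tumor 2 summits for 118 H3K27ac summits. The low shares therefore follow largely from these counts and are not a separate result about where YAP summits lie.

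Genes that work with or upstream of the Hox genes were counted from lists of the pathway. Over all genes, 54.3% had a normal, 81.4% a tumor and 59.9% an equal-length H3K27ac summit, and 60.1% a YAP site of both tumor libraries, the shares against which each count is to be read. Most single-gene rises below held in the full tumor list only. TALE homeodomain proteins (Pbx, Meis and Pknox) bind DNA together with Hox proteins. All 9 TALE genes had an H3K27ac summit in normal tissue, in tumor tissue and at equal length, with 18, 40 and 18 summits, and 8 of 9 had a YAP site of both tumor libraries (9 of 9 with tumor 2 alone). Meis1, a partner of Hoxa9, had 4 summits in normal, 7 in tumor and 5 in the equal-length list, with 6 YAP sites. The Hox genes stood apart from their partners in normal tissue, 11 of 39 against 9 of 9, but these are counts and were not tested. Hox genes had less sequence assigned in the median than all protein-coding genes, as given above. The stretch assigned to the TALE genes was not compared. The ParaHox and caudal genes, relatives of the Hox genes, had a normal summit at 0 of 6 genes and a tumor summit at 5 of 6, and 2 of 6 at equal length. Of the 6, 2 had a shared YAP site and 4 a summit of tumor 2. Cdx2, the intestinal member, had 0 normal and 4 tumor summits and 2 YAP sites, and Gsx1 0 and 7 and 1 YAP site; both were at 0 at equal length.

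Polycomb genes, whose products repress Hox clusters, had a normal summit at 12 of 14 and a tumor summit at 14 of 14, also at equal length, with a shared YAP site at 13 and a tumor 2 summit at 14. Trithorax-group genes, whose products oppose that repression, were marked at 7 of 7 in each list, with a YAP site at all 7, also in tumor 2 alone. Kmt2a, the methyltransferase that keeps Hox genes active, had 2 normal and 5 tumor summits, 2 at equal length, and 1 YAP site, ranked 119 or better in each tumor library. Kmt2b had 1 and 4, and 1 at equal length. Genes of retinoic acid signalling, the inducer of anterior Hox genes in the embryo, had a normal summit at 5 of 11, a tumor summit at 11 of 11 and 6 of 11 at equal length, with a shared YAP site at 10 and a tumor 2 summit at 11. Rxra, a retinoid receptor subunit, had 6 normal and 23 tumor summits but 3 at equal length, below the normal count, and 7 YAP sites. Of other gut homeobox genes 3 of 8 were marked in normal and 7 of 8 in tumor tissue, 5 of 8 at equal length, with a shared YAP site at 5 and a tumor 2 summit at 7. Nkx2-3 had 0 normal and 9 tumor summits, 0 at equal length, and 4 YAP sites.

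The tissue label was compared with marker genes. Of 15 corpus epithelium markers 14 had a normal and 14 a tumor H3K27ac summit, and 10 did at equal length. They held 37 summits in normal tissue, 45 in tumor tissue and 17 at equal length. The tumor list as a whole was 2.96 times as long as the normal list. Tff2 was at 0 in normal and Gkn1 at 0 in tumor tissue. Fibroblast and muscle markers, which matter here because mesenchyme of the gut also expresses Hox genes, had a summit at 4 of 7 in normal and 6 of 7 in tumor tissue, with 8 and 24 summits and 3 of 7 and 3 summits at equal length. In the full list Col1a1 had 3 normal and 9 tumor summits, Pdgfra 0 and 5, Myh11 0 and 6 and Des 0 and 2. Col1a2 had 2 and 1, Vim 1 and 1 and Acta2 2 and 0. At equal length Col1a1, Col1a2 and Vim had 1 each and the other 4 were at 0. Of 2 endothelial markers 1 was marked in normal and 2 in tumor tissue, with 5 and 13 summits. Of 2 blood markers 1 was marked in each, of 4 intestinal markers 3 in each, and of 3 squamous forestomach markers 0 and 2; at equal length the counts were 1 endothelial, 0 blood, 1 intestinal and 0 squamous. The part of other cell types in the Hox summits was not tested. Fewer or more cells of a type and a different mark per cell cannot be told apart in bulk tissue.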

How the data were processed

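ChIP-seq summit lists of gastric corpus epithelium were used as the authors deposited them: 1 H3K27ac library of normal and 1 of tumor tissue, and 2 YAP libraries of each. Reads were 50 bp, paired. Bowtie2, MACS2 and GRCm38 (mm10) are named in the submitters' processing notes; for versions, thresholds and the calling control, no source used here gives them. Each file lists 1-bp summits per library, and the deposited score is a −log10 value of a p or q, which of them not being stated. A summit list holds no read depth, and its length follows the caller's threshold as well as the tissue.

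Summits were assigned to the protein-coding gene with the nearest start or end within 50 kb (RefSeq, GRCm38.p6, 21883 genes). YAP summits of 2 libraries matched one to one within 200 bp made a shared site, and H3K27ac summits were matched within 1 kb. YAP counts were compared with an exact permutation test. Shares have Wilson and ratios exact binomial 95% intervals, for counting error only. Groups came from the labels. The members, lists and markers were chosen with earlier results of these data known. Named were all Hox genes, genes to which a window's summit was assigned, and of each companion list up to 4 genes by the rank of their best shared tumor YAP site; Tff2, Gkn1, Des, Col1a2 and Vim were named after their values were seen. The alternatives were other assignment and matching distances, window flanks, a score of at least 10, equal list length, each YAP library left out and the replicate block. Assignment and matching were tested on simulated summits. Exons, introns and summit sequences were not analysed here. Counts and medians cover all members, but 1 Hox gene, left undrawn in the figures, and 1 companion gene are not reported here by name. Python 3.11.15, numpy 2.4.6, pandas 2.3.3, scipy 1.17.1 and matplotlib 3.10.9 were used.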

Additional observations from a re-analysis of the deposited data

How the results depend on the processing

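Of 74 alternatives 63 were kept and 11 were not. For the YAP test, kept meant the same direction and the same side of the threshold. For values without a test it meant a move of less than their error, and for counts of genes of less than 1.5 times. Some of the 63 could not come out otherwise. The replicate block reused the same counts, so its difference of 15 was fixed. For YAP shares near H3K27ac the error was the SD of the 2 tumor libraries. Leaving out either one therefore always stayed within it. The YAP difference could pass the threshold in no setting, because so few libraries allow no p below 0.333 in the exact permutation test. Its 13 kept settings thus speak for the direction only, and the 1 without the 2 questioned libraries had no test. The YAP difference was 2.5 summits with a score of at least 10 and 4 when grouped by peak-name word, against 15. Tumor 2 alone, in place of shared sites, was chosen for companion genes and H3K27ac after seeing the data. Equal list length changed the most. The YAP difference between tumor and normal went to -0.5 (exact permutation p = 1), the H3K27ac ratio from 8.43 to 1.36, the tumor H3K27ac summits with a normal partner from 11.9% to 52.6%, Hox genes with a tumor H3K27ac summit from 39 to 13 and posterior genes from 16 to 0. The share of YAP summits near H3K27ac had no value at equal length because no tumor YAP summit was left. With a score of at least 10 the H3K27ac ratio was 25 (75 tumor summits against 3), Hox genes with a normal H3K27ac summit fell to 3, and Hox genes with a shared tumor YAP site fell to 1. H3K27ac matching within 2000 bp paired 100% of the normal summits, and YAP matching to H3K27ac within 500 bp gave a mean share of 35.7% in place of 52.7%. Leaving out each YAP library gave differences of 10.5 to 19.5 summits, 9 to 15 Hox genes with a tumor YAP site (15 without tumor 1) and YAP shares near H3K27ac of 45.5% to 60.0%. With the replicate number as a block the difference was 15 summits (exact sign-flip permutation p = 0.5, the smallest 2 pairs allow). Same-numbered libraries deviated together with r = 0.02 over 21883 genes, and the labels do not say that a number marks a shared animal. Depth was unknown, so a missing summit may lie below the caller's threshold.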

Other observations

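The Hox windows also hold noncoding genes that the counts above do not cover. Of 29 long noncoding RNA genes, 5 held a normal and 17 a tumor H3K27ac summit inside their bounds. YAP summits lay inside 3 of them in tumor 1 and 4 in tumor 2. The shares over all long noncoding RNA genes and the counts at equal list length were not computed. The full tumor H3K27ac list was 2.96 times as long as the normal one, so the rise cannot be read as particular to these genes. Hotair, in the Hoxc cluster, had its nearest tumor H3K27ac summit at 930 bp and Hottip, at the posterior end of Hoxa, at 1640 bp. Without strand in a summit, such a gene and its Hox neighbour cannot be told apart.

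The windows hold 6 microRNA genes, which lie between or within the Hox genes; those of the miR-10 and miR-196 families are known to target Hox messages. None had a summit inside its hairpin, but the hairpins are so short that this absence says little. Mir615, in the Hoxc cluster, had a normal H3K27ac summit at 547 bp and a tumor summit at 14 bp. Mir10a, in Hoxb, had them at 1692 and 1785 bp. Mir10b, in Hoxd, had its nearest normal summit 99911 bp away and a tumor summit at 592 bp, and Mir196b, in Hoxa, at 26199 and 553 bp. The paralogs are shown with the seed (bases 2 to 8, RefSeq GRCm38.p6) in capitals, since the copies of a pair share it while they lie in different clusters.
miR-10a-5p: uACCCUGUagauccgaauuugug
miR-10b-5p: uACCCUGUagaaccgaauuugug
miR-196a-5p: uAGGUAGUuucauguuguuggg
miR-196b-5p: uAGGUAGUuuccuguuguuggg
Counted from the 5′ end, miR-10a-5p and miR-10b-5p differ at 1 base (U12A), and miR-196a-5p and miR-196b-5p at 1 base (A12C).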
